A study of Mus musculus with 13 samples.

Results

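Fibronectin (Fn1), thrombospondin 1 (Thbs1), Sparc, tissue inhibitor of metalloproteinases 1 (Timp1), periostin (Postn), tenascin C (Tnc), osteopontin (Spp1), transforming growth factor beta 1 (Tgfb1) and lysyl oxidase (Lox) are the 9 genes described here, out of 54532 in the expression table. They are the rows with these symbols, each symbol had 1 row, and all 9 were among the 14421 genes that reached an FPKM (a read count scaled for gene length and library depth) of at least 1 in at least 3 libraries. They were chosen by their matrix roles with the group differences in FPKM already seen, chiefly those of SF_ConD against SC_ConD, so these differences are given as values and not as tests of the genes as a set.

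RNA came from inguinal white adipose tissue, a subcutaneous fat depot, of individual mice fasted for 12 h. SF_HPD are 5 mice under sleep fragmentation fed a high-protein diet (50% of calories from protein, 12% from fat, 38% from carbohydrate). SF_ConD are 5 mice under sleep fragmentation fed the matched chow, and SC_ConD are 3 mice with normal sleep fed the same chow. The labels state no strain, sex or age for the mice. SF_ConD against SC_ConD asks about sleep fragmentation on chow, and SF_HPD against SF_ConD asks about diet under sleep fragmentation. SF_HPD against SC_ConD changes both sleep and diet. The 3 comparisons share libraries with each other, so none of them is independent of the other two.

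Fat cells and the stromal cells between them sit in an extracellular matrix that is rebuilt as a depot grows, shrinks or becomes inflamed. Fibronectin is a fibrillar glycoprotein. Thrombospondin 1, Sparc, osteopontin, tenascin C and periostin are matricellular proteins that modify how cells attach to matrix and respond to growth factors. Timp1 blocks metalloproteinases, lysyl oxidase cross-links collagen and elastin, and Tgfb1 is secreted in a latent form and, once released, drives the transcription of many matrix genes in stromal cells.

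Several of these proteins are bound by integrins through an arginine-glycine-aspartate tripeptide. The coding sequences show which members encode it, and they are printed here because the genes with it include the 3 with the largest log2 fold changes between SF_ConD and SC_ConD over all libraries. Each line is a stretch of the GENCODE M21 transcript, 5′ to 3′, with the codons for arginine, glycine and aspartate in capitals.
Fn1: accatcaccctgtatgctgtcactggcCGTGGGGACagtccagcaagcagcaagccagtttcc
Thbs1: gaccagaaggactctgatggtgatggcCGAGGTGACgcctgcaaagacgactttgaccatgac
Spp1: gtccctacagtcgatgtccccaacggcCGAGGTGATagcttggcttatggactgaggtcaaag
Tgfb1: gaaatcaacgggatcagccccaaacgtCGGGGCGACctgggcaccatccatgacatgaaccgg
In Fn1 the tripeptide was encoded 2 times and the first, shown, starts at codon 1614 of 2477. It starts at codon 927 of 1171 in Thbs1, at codon 145 of 295 in Spp1, and at codon 244 of 390 in Tgfb1, where it lies in the latency-associated part of the precursor. The coding sequences of Sparc, Timp1, Postn, Tnc and Lox held 0 such tripeptides. Encoding the tripeptide did not group the genes by direction, since with all libraries Tgfb1 differed in the opposite direction from the other 3.

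FPKM divides by gene length, but in some libraries long genes still read higher than short ones (below). Levels of genes of unlike length therefore compare only roughly. Over the 13 libraries Sparc averaged 292 FPKM, Postn 26.9 FPKM, Fn1 20.1 FPKM, Thbs1 10.05 FPKM, Lox 8.32 FPKM, Tgfb1 7.39 FPKM, Timp1 4.55 FPKM, Spp1 3.80 FPKM and Tnc 1.39 FPKM. Means over groups that differ are moved by a few libraries: the median of Fn1 was 8.64 FPKM, below the 9.66 FPKM of Thbs1, and that of Spp1 0.950 FPKM, below the 0.955 FPKM of Tnc. Sparc stood above 98.2% of the genes tested by its mean, and Tnc above 16.5%. The range within a gene was wide: the highest library was 9.61 times the lowest for Sparc, 44.1 times for Fn1 and 44.5 times for Timp1. Library depth was even, at 14815592 to 18303302 reads on genes, so the low genes rested on few reads. Timp1 had 5 to 243 reads in a library, Spp1 0 to 353 and Tnc 0 to 677, against 2161 to 45215 for Sparc. The table's gene coordinates, given here, are those of GRCm38 (53499 of 54532 genes have the same start and end in GENCODE M21). Exons of 4 members overlap an annotated gene of the opposite strand, by 292 bases for Fn1, 208 for Thbs1, 176 for Tnc and 30 for Lox, and Spp1 shares 309 bases with a gene of its own strand. No source used here states whether strand was counted, so reads from such stretches cannot be assigned to either gene.

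Several libraries stood apart in what tissue they held. They are given before the differences because some members had their highest or lowest values in them. The 18 liver markers averaged 9.41 and 8.24 on the log2(FPKM + 1) scale in SC_ConD 2 and SC_ConD 3 and at most 4.56 in the other 11 libraries; albumin (Alb) was at 4223 and 1614 FPKM in those libraries and at 52.2 FPKM in SC_ConD 1. None of the 18 liver genes was at 0 throughout a group. The summed liver markers were 275 to 4349 FPKM in SF_HPD, 2843 to 6190 FPKM in SF_ConD and 2057 to 27532 FPKM in SC_ConD, and the highest of these genes, Cyp2e1, is also made by adipocytes. B cell and lymph node markers were high in SF_HPD 4 and 5 and in SF_ConD 1, 4 and 5. Skeletal muscle markers were high in SF_HPD 4 and SC_ConD 3. The adipocyte markers, led by adipsin (Cfd) and Car3, averaged 4.71 on that scale in SF_HPD 2 and 7.93 to 9.63 in the other 12 libraries, so all but SF_HPD 2 carried the labelled tissue's markers at a high level. SF_HPD 2 and SC_ConD 2 also held mesothelial transcripts (means of 4.32 and 3.14 over 5 markers, at most 1.18 in the others). In 4 libraries long genes read higher than short ones (Spearman rho between deviation and gene length of 0.563 in SF_HPD 1, 0.484 in SF_HPD 4, 0.485 in SF_ConD 3 and 0.559 in SC_ConD 1, against at most 0.0319 in the other 9). In whole tissue, fewer cells of a type and less RNA per cell cannot be told apart.

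**Figure D1:**
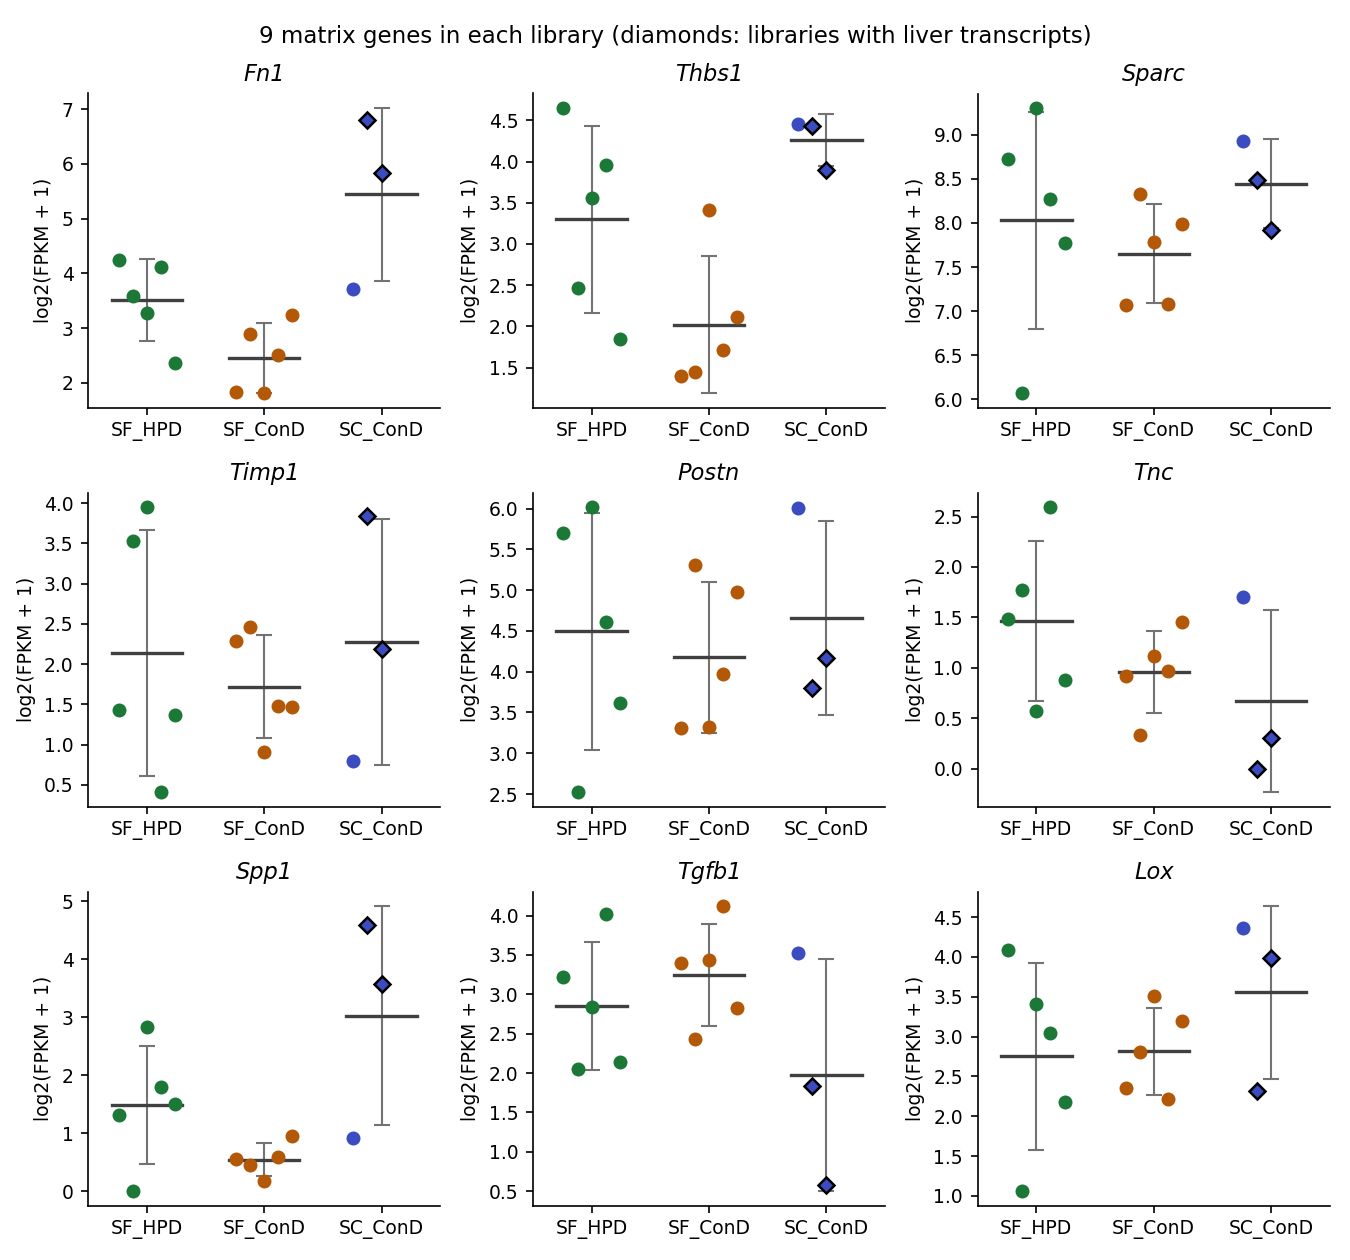
FPKM of the 9 genes on the log2(FPKM + 1) scale (y axis) in each library, in columns for SF_HPD (green), SF_ConD (orange) and SC_ConD (blue); the thick line is the group mean and the bar its SD, and diamonds mark the libraries with liver transcripts. The groups SF_ConD and SC_ConD did not overlap in Fn1 and Thbs1 on this scale (Thbs1 overlapped in TPM), and in Spp1 and Fn1 the 2 diamonds were the highest of the 13 libraries.

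Fibronectin, which cells assemble into fibrils that anchor collagen, was the member with the smallest p for SF_ConD against SC_ConD. Fn1 (ENSMUSG00000026193, chromosome 1, 71585520 to 71653200, minus strand) was at 17.95, 10.96, 8.64, 16.3 and 4.15 FPKM in SF_HPD 1 to 5. It was at 2.54, 6.42, 2.496, 4.66 and 8.398 FPKM in SF_ConD 1 to 5, and at 12.1, 110 and 56.0 FPKM in SC_ConD 1 to 3. Every SF_ConD library was below every SC_ConD library, also in TPM (3.82 to 11.6 in SF_ConD and 33.3 to 109 in SC_ConD), while SF_HPD overlapped both groups. The group means were 11.6 ± 5.65 FPKM in SF_HPD and 4.903 ± 2.55 FPKM in SF_ConD (SD, n = 5 each) and 59.4 ± 49.1 FPKM in SC_ConD (SD, n = 3). The log2 fold change was −2.997 (SE 0.63) for SF_ConD against SC_ConD, the smallest unadjusted p of the 14421 genes, with a limma adjusted p of 0.716. It was 1.06 (SE 0.55) for SF_HPD against SF_ConD and −1.93 (SE 0.63) for SF_HPD against SC_ConD. The genes were picked with the differences between SF_ConD and SC_ConD already seen. The rank of Fn1 by p there is thus a value and not a test.

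The high Fn1 values were those of SC_ConD 2 and SC_ConD 3, the libraries with liver transcripts. Liver cells secrete the plasma form of fibronectin. With SC_ConD 1 as the only normal-sleep library, the log2 fold change was −1.26 for SF_ConD against SC_ConD and −0.20 for SF_HPD against SC_ConD; the lone library was assumed to vary like the others. Without SC_ConD 1, which leaves only liver-bearing libraries in that group, it was −3.86 (limma adjusted p = 0.0019) and −2.80 (limma adjusted p = 0.0228). Within the 9 libraries of low length trend, where SC_ConD is again only libraries 2 and 3, it was −3.70 (limma adjusted p = 0.00618) and −3.24 (limma adjusted p = 0.0158). The part of the liver transcripts in the Fn1 difference was not tested. Vitronectin (Vtn), another plasma adhesion protein made mainly by liver, was at 383 and 157 FPKM in SC_ConD 2 and 3 and at 9.85 FPKM in SC_ConD 1, against 0 to 14.0 FPKM in SF_HPD and 4.12 to 18.5 FPKM in SF_ConD.

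Thrombospondin 1, a trimeric glycoprotein that binds CD36 and CD47 and can activate latent Tgfb1, was the member whose difference depended least on the liver-bearing libraries. Thbs1 (ENSMUSG00000040152, chromosome 2, 118111876 to 118127133, plus strand) was at 24.2, 4.53, 10.8, 14.6 and 2.59 FPKM in SF_HPD. It was at 1.63, 1.73, 9.66, 2.27 and 3.34 FPKM in SF_ConD and at 20.9, 20.5 and 13.9 FPKM in SC_ConD. The 5 SF_ConD libraries lay below the 3 SC_ConD libraries without overlap, and the highest of them, SF_ConD 3, was one of the 4 libraries in which long genes read high. The sum of FPKM differed between libraries, and after rescaling to an equal sum (TPM) this separation was lost: Thbs1 was at 2.46 to 26.8 TPM in SF_ConD and at 18.6 to 57.6 TPM in SC_ConD. SF_HPD spread over the range of both other groups. The means were 11.3 ± 8.63 FPKM in SF_HPD and 3.73 ± 3.38 FPKM in SF_ConD (SD, n = 5 each) and 18.5 ± 3.92 FPKM in SC_ConD (SD, n = 3). The log2 fold change was −2.24 (SE 0.61, limma adjusted p = 0.716) for SF_ConD against SC_ConD and 1.28 (SE 0.53, limma adjusted p = 0.999994) for SF_HPD against SF_ConD. For SF_HPD against SC_ConD it was −0.96 (SE 0.61).

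Against SC_ConD 1 alone, the Thbs1 log2 fold change was −2.44 for SF_ConD and −1.16 for SF_HPD, as large as with the liver-bearing libraries. SC_ConD 1 was, however, one of the libraries of high length trend. Thbs1 had a Pearson r of 0.596 with that trend over all libraries (adjusted permutation p = 0.126) and 0.826 without the liver-bearing libraries. The part of the trend in this difference was not tested. Within the 9 libraries of low length trend the Thbs1 log2 fold change was −2.495 (limma adjusted p = 0.0405) for SF_ConD against SC_ConD and 0.96 for SF_HPD against SF_ConD. There SC_ConD is only the liver-bearing libraries 2 and 3, and this subset was added after the data were seen. No alternative left out both kinds of library, as that would leave no SC_ConD library. Over 25 alternatives the SF_ConD difference from SC_ConD ran from −2.59 to −1.83, the latter without the lymphoid-rich libraries. Those include SF_ConD 1, 4 and 5 and no SC_ConD library. Thbs1 had a Pearson r of −0.621 with the B cell and lymph node markers (adjusted permutation p = 0.116), and their part in this difference was not tested. The 2 highest SF_HPD values, in libraries 1 and 4, came from libraries of high length trend; without SF_HPD 1 the difference between SF_HPD and SF_ConD was 0.94.

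Osteopontin, a secreted phosphoprotein of macrophages and other cells that binds integrins and CD44, was highest, like Fn1, in SC_ConD 2 and 3. Spp1 (ENSMUSG00000029304, chromosome 5, 104435118 to 104441050, plus strand) was at 1.48, 0, 6.15, 2.497 and 1.84 FPKM in SF_HPD. It was at 0.481, 0.366, 0.127, 0.510 and 0.950 FPKM in SF_ConD and at 0.900, 23.1 and 10.99 FPKM in SC_ConD. The 0 in SF_HPD 2 allows a level of up to 0.210 FPKM (3 reads; counting error only). The 2 liver-bearing libraries were the highest of the 13, and SC_ConD 1 was within the range of SF_ConD. In TPM SC_ConD 1 was above that range, as SF_ConD was at 0.352 to 1.15 TPM and SC_ConD at 2.48 to 22.8 TPM. The log2 fold change was −2.48 (SE 0.72, limma adjusted p = 0.716) for SF_ConD against SC_ConD, 0.94 (SE 0.62) for SF_HPD against SF_ConD and −1.54 (SE 0.72) for SF_HPD against SC_ConD. With a pseudocount of 0.1 the SF_ConD difference from SC_ConD was −3.60 for Spp1, beyond the −3.24 of Fn1. Against SC_ConD 1 alone these differences from SC_ConD were −0.38 for SF_ConD and 0.57 for SF_HPD. Without SC_ConD 1 the SF_ConD difference was −3.54 (limma adjusted p = 0.00648), and within the 9 libraries of low length trend it was −3.44 (limma adjusted p = 0.0488). In both settings SC_ConD is only the liver-bearing libraries 2 and 3. The macrophage markers ran from 3.37 to 5.42 in SF_HPD, from 2.81 to 4.86 in SF_ConD and from 3.47 to 4.58 in SC_ConD (mean log2(FPKM + 1) of 16 genes), and their part in the Spp1 values was not tested.

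Sparc binds collagen and limits how adipose progenitors differentiate, and it was the most abundant member. Sparc (ENSMUSG00000018593, chromosome 11, 55394500 to 55423183, minus strand) was at 422, 65.9, 633, 309 and 218 FPKM in SF_HPD, at 133, 322, 220, 134 and 252 FPKM in SF_ConD, and at 486, 359 and 241 FPKM in SC_ConD. The groups overlapped, and the lowest of the 13 values was in SF_HPD 2, the library with few adipocyte transcripts. Sparc had a log2 fold change of −0.80 (SE 0.69) for SF_ConD against SC_ConD, 0.38 (SE 0.59) for SF_HPD against SF_ConD and −0.42 (SE 0.69) for SF_HPD against SC_ConD. Without SF_HPD 2 the difference between SF_HPD and SF_ConD was 0.87.

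Periostin, a fasciclin-domain protein that links collagen and fibronectin, varied across libraries much as Sparc did. Postn (ENSMUSG00000027750, chromosome 3, 54361109 to 54391037, plus strand) was at 51.1, 4.74, 64.0, 23.4 and 11.2 FPKM in SF_HPD, at 8.90, 38.5, 8.98, 14.7 and 30.6 FPKM in SF_ConD, and at 63.5, 12.9 and 17.0 FPKM in SC_ConD. SF_HPD 2 was again the lowest and SF_HPD 3 the highest of the 13. The log2 fold changes were −0.48 (SE 0.80), 0.32 (SE 0.70) and −0.16 (SE 0.80) in the 3 comparisons in the order above. Against SC_ConD 1 alone they became −1.84 for SF_ConD and −1.52 for SF_HPD, whereas within the 9 libraries of low length trend the SF_ConD difference from SC_ConD was 0.41, so Postn had no direction that held across these choices.

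Lysyl oxidase, the cross-linking enzyme, did not separate the groups. Lox (ENSMUSG00000024529, chromosome 18, 52516069 to 52529867, minus strand) was at 16.0, 1.08, 9.66, 7.24 and 3.52 FPKM in SF_HPD, at 4.13, 6.003, 10.4, 3.65 and 8.14 FPKM in SF_ConD, and at 19.6, 3.98 and 14.8 FPKM in SC_ConD. SC_ConD 1 was the highest of the 13 libraries and SF_HPD 2 the lowest. Lox had a log2 fold change of −0.74 (SE 0.64) for SF_ConD against SC_ConD, −0.06 (SE 0.55) for SF_HPD against SF_ConD and −0.80 (SE 0.64) for SF_HPD against SC_ConD. Against SC_ConD 1 alone it was −1.54 for SF_ConD and −1.61 for SF_HPD. Without SC_ConD 2 the SF_ConD difference was −1.35, and without SC_ConD 1 it was −0.33. For SF_HPD against SF_ConD the sign was kept in 20 of 27 alternatives, which ran from −0.43 to 0.36. The highest Lox value in each group was in a library of high length trend, SF_HPD 1, SF_ConD 3 and SC_ConD 1.

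The remaining 3 members gave no separation of the groups. Timp1 (ENSMUSG00000001131, chromosome X, 20870166 to 20874735, plus strand), with 888 bases the shortest of the 9, was at 1.69, 10.5, 14.5, 0.326 and 1.59 FPKM in SF_HPD, at 3.87, 4.53, 0.883, 1.78 and 1.76 FPKM in SF_ConD, and at 0.735, 13.3 and 3.57 FPKM in SC_ConD. The 4 libraries of high length trend were at 0.326 to 1.69 FPKM, and the other 9 at 1.59 to 14.5 FPKM. The log2 fold change of Timp1 was −0.55 (SE 0.82), 0.42 (SE 0.71) and −0.14 (SE 0.82) in the same order of comparisons; against SC_ConD 1 alone it was 0.93 for SF_ConD and 1.34 for SF_HPD.

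Tenascin C, a hexameric glycoprotein of remodelling and wounded tissue, was scarce. Tnc (ENSMUSG00000028364, chromosome 4, 63959785 to 64047015, minus strand) was at 1.79, 2.41, 0.485, 5.05 and 0.844 FPKM in SF_HPD, at 0.893, 0.259, 1.17, 0.955 and 1.75 FPKM in SF_ConD, and at 2.24, 0 and 0.238 FPKM in SC_ConD. The 0 in SC_ConD 2 allows up to 0.0416 FPKM. It passed an FPKM of 1 in 6 of the 13 libraries. In Tnc the log2 fold change was 0.29 (SE 0.49), 0.50 (SE 0.42) and 0.79 (SE 0.49) in the same order. Its difference from SC_ConD had no direction that held: against SC_ConD 1 alone it was −0.74 for SF_ConD and −0.24 for SF_HPD, whereas limma-voom gave 2.38 and 3.19 and a pseudocount of 0.1 gave 1.18 and 1.97.

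Tgfb1, the growth factor of the set, did not separate the groups either. Its gene (ENSMUSG00000002603, chromosome 7, 25687002 to 25705077, plus strand) was at 8.35, 3.14, 6.14, 15.2 and 3.42 FPKM in SF_HPD, at 9.58, 4.40, 9.82, 16.4 and 6.07 FPKM in SF_ConD, and at 10.5, 2.56 and 0.488 FPKM in SC_ConD. The lowest of the 13 values were in the liver-bearing SC_ConD 3 and SC_ConD 2, while SC_ConD 1 lay above 4 of the 5 SF_ConD libraries. For Tgfb1 the log2 fold change was 1.27 (SE 0.63, limma adjusted p = 0.875) for SF_ConD against SC_ConD, −0.39 (SE 0.54) for SF_HPD against SF_ConD and 0.88 (SE 0.63) for SF_HPD against SC_ConD. Against SC_ConD 1 alone it was −0.28 for SF_ConD and −0.67 for SF_HPD.

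**Figure D2:**
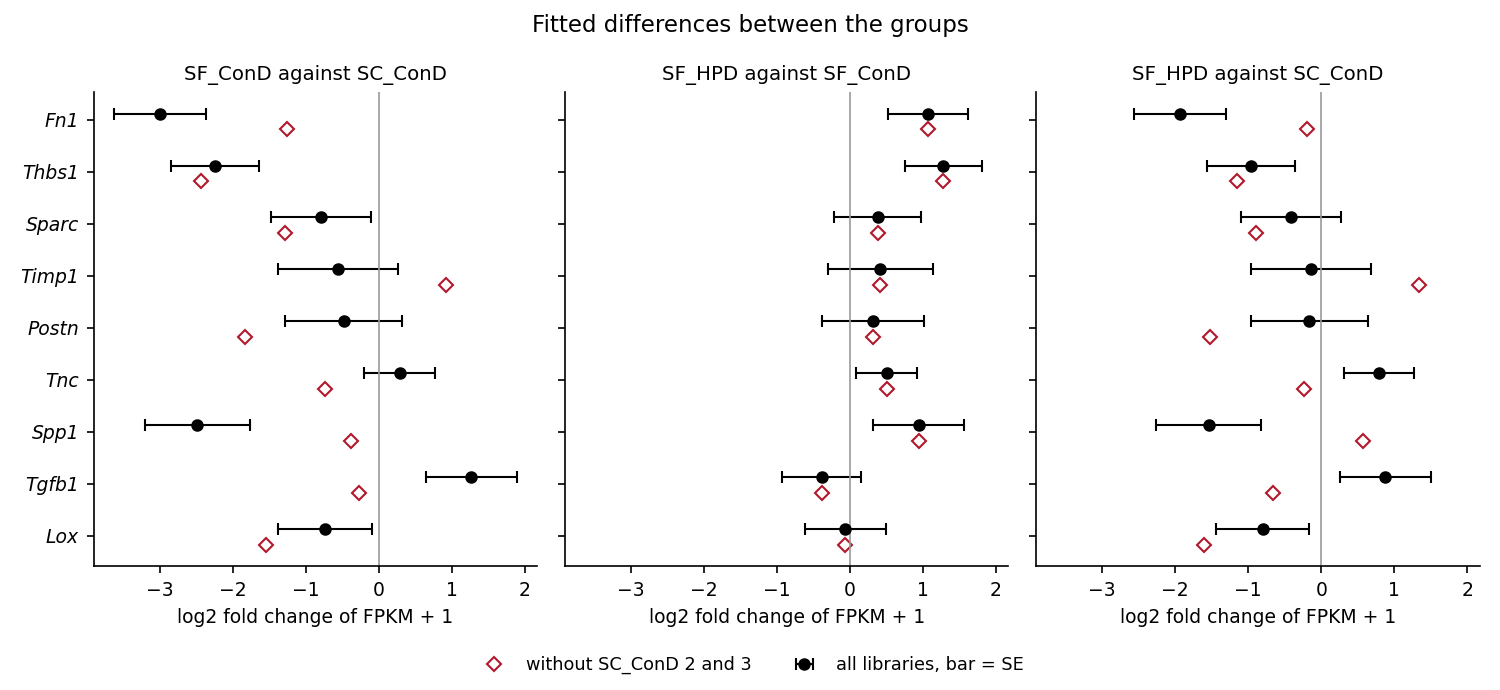
Log2 fold change of FPKM + 1 (x axis) of the 9 genes (y axis) in 1 panel for each comparison; black points with SE bars are from all 13 libraries and open red diamonds are the values without the liver-bearing SC_ConD 2 and 3. For SF_ConD against SC_ConD, Fn1 was at −2.997 with all libraries and −1.26 without those 2, and Thbs1 at −2.24 and −2.44.

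None of the 9 genes passed an adjusted p of 0.05 in limma in any comparison. Of the 14421 genes 0% did for SF_ConD against SC_ConD, and likewise 0% when SF_HPD was set against SF_ConD and 0% when it was set against SC_ConD. limma-voom on the recovered reads also called 0 genes in each. Without SC_ConD 1, 194 genes passed in limma for SF_ConD against SC_ConD, Fn1 and Spp1 among them, and 195 for SF_HPD against SC_ConD, Fn1 among them. The SC_ConD libraries in that fit are the 2 with liver transcripts. For SF_ConD against SC_ConD, 828 genes had an unadjusted p under 0.05 by limma and 654 by limma-voom. Fn1, Thbs1 and Spp1 were 3 members with such a p and a lower level, where the background was 3.15% lower and 2.59% higher. In FPKM, Fn1 and Thbs1 were the 2 members whose libraries did not overlap, both lower, beside 1.92% of all genes lower and 1.68% higher without overlap. The differences in that comparison were among those known when the genes were picked, so nothing is read from these counts. The median log2 fold change of the members was −0.74, with 7 negative and 2 positive, beside −0.03 over all genes, of which 52.6% were negative.

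For SF_HPD against SF_ConD, 273 genes had an unadjusted p under 0.05 by limma and 264 by limma-voom. Thbs1 was the 1 member among them, on the higher side, where 0.832% of all genes were higher and 1.06% lower. No member separated the groups completely, and 0.229% of all genes did so on the higher side and 0.229% on the lower. The members' median log2 fold change was 0.42, with 7 positive and 2 negative, beside 0.01 over all genes, of which 48.1% were negative. It was 0.06 without SF_HPD 3 and 0.81 without SF_HPD 2, so these 2 libraries moved it by more than 1.5 times in opposite directions.

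For SF_HPD against SC_ConD, 531 genes had an unadjusted p under 0.05 by limma and 481 by limma-voom. Fn1 was the 1 member among them, on the lower side, where 2.67% of all genes were lower and 1.01% higher. All 9 members overlapped between the groups; 0.853% of genes were lower and 0.791% higher without overlap. The members' median was −0.42, with 7 negative and 2 positive, beside 0.02 over all genes.

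The members did not vary as 1 block across the 13 libraries. Of the 36 pairs, 24 had a positive Pearson r of log2(FPKM + 1), with a median r of 0.158. In 1 pair, Sparc and Postn, both coefficients passed an adjusted permutation p of 0.05 (100000 permutations, two-sided, Benjamini-Hochberg over the 36 pairs): r was 0.858 (permutation p = 9e-05, adjusted p = 0.00324) and Spearman's rho 0.879 (permutation p = 0.00022, adjusted p = 0.00792). It was 0.754 without the 2 libraries farthest from the median of Sparc, 0.866 after subtracting group means, 0.850 within the 9 libraries of low length trend and 0.915 without the liver-bearing libraries.

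Lox went with both genes by Pearson r alone. Its r was 0.746 with Sparc (permutation p = 0.00352, adjusted p = 0.0407) and 0.729 with Postn (permutation p = 0.00452, adjusted p = 0.0407), with rho of 0.648 and 0.659 (adjusted permutation p = 0.126 for both). Without the 2 farthest libraries r was 0.609 with Sparc and 0.667 with Postn, and within the 9 libraries of low length trend it was 0.707 and 0.732. Sparc also went with the adipocyte markers (r 0.818, adjusted permutation p = 0.0439 over 72 relations of members with library measures; rho 0.703, adjusted permutation p = 0.0928), and r was 0.580 without the 2 farthest libraries. These 3 genes were all lowest in SF_HPD 2, where the adipocyte markers were also lowest.

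**Figure D3:**
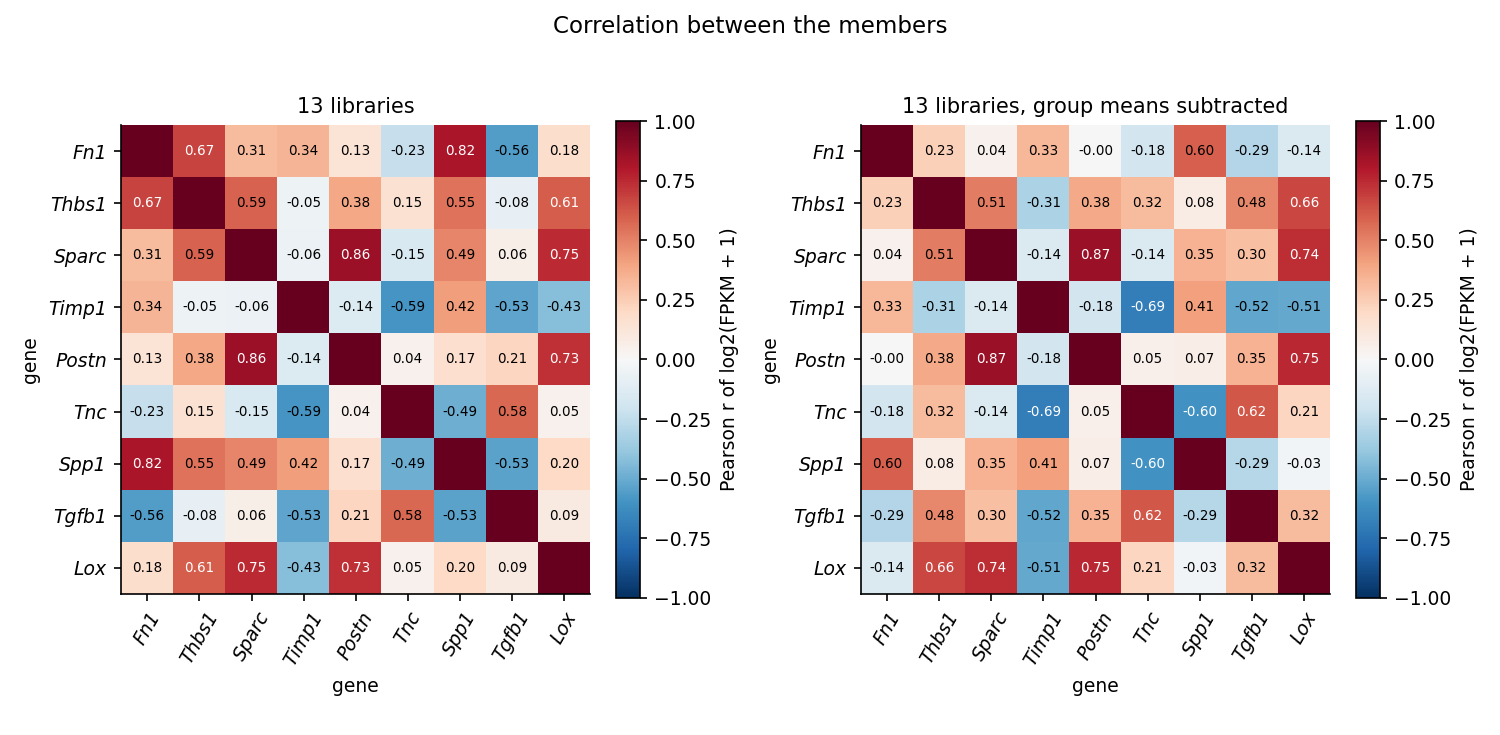
Pearson r of log2(FPKM + 1) between the 9 genes (rows and columns) over the 13 libraries on the left and after subtracting each group's mean on the right; red is positive and blue negative. Sparc, Postn and Lox kept r of 0.740 to 0.866 with each other after the subtraction, while Fn1 and Thbs1 went to 0.235.

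The correlation of Fn1 with Spp1 changed more than that with Thbs1 when the liver-bearing libraries were left out. Fn1 and Spp1 had an r of 0.820 (permutation p = 0.00143, adjusted p = 0.0257) and a rho of 0.643 (permutation p = 0.0209, adjusted p = 0.126). That r was 0.599 after subtracting group means and 0.369 without SC_ConD 2 and 3. The relation thus rested on those libraries. Fn1 and Thbs1 had a rho of 0.780 (permutation p = 0.00252, adjusted p = 0.0454) and an r of 0.672 (permutation p = 0.00893, adjusted p = 0.0643). Here r was 0.658 without SC_ConD 2 and 3, which were also the 2 farthest libraries. It was 0.235 after subtracting group means and 0.897 within the 9 libraries of low length trend. The permutations ran over all libraries and not within groups. Group differences that these genes share, seen when they were picked, therefore enter the p-values of both pairs. Spp1 went with the 16 stromal progenitor markers, led by Gsn and Ly6a, with a rho of 0.918 (permutation p = 7e-05, adjusted p = 0.00504 over the 72 relations) and an r of 0.761 (adjusted permutation p = 0.0477). That r was 0.816 without the 2 farthest libraries and 0.891 without the liver-bearing ones. Among these markers, Thy1 had its highest values in the lymphoid-rich SF_ConD 1, 4 and 5. Timp1 with the endothelial markers had an r of −0.743 and Lox with them an r of 0.790 (adjusted permutation p = 0.0477 for both), with rho of −0.703 and 0.709 (adjusted permutation p = 0.0928 for both), and r was −0.518 and 0.657 within the 9 libraries of low length trend.

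**Figure D4:**
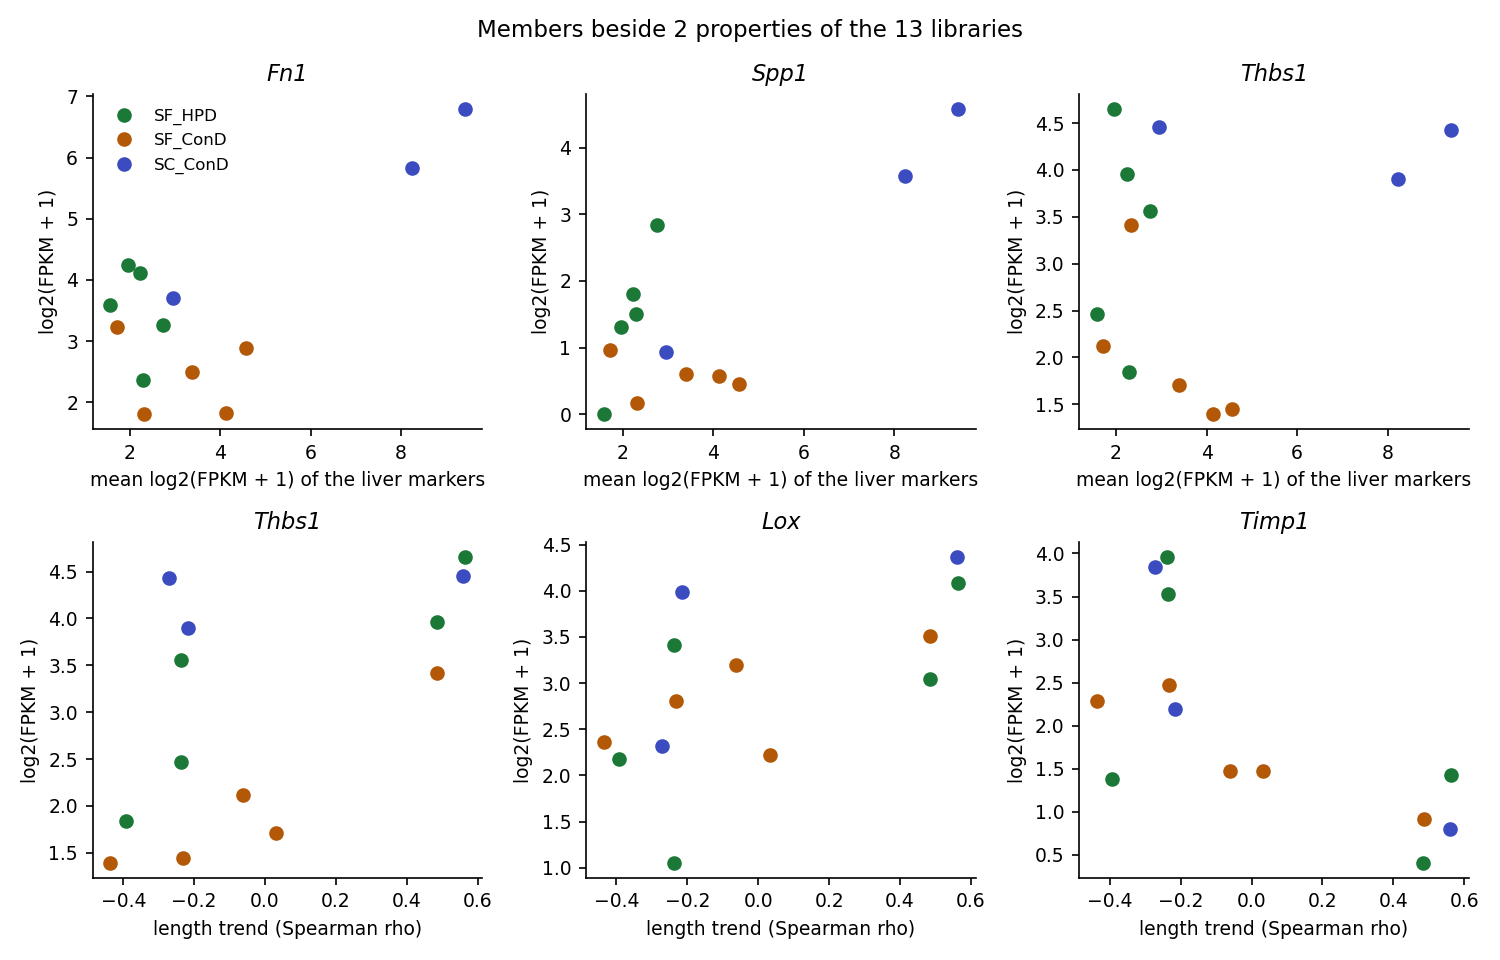
Log2(FPKM + 1) (y axes) of Fn1, Spp1 and Thbs1 against the mean log2(FPKM + 1) of the liver markers in the top row, and of Thbs1, Lox and Timp1 against the length trend of each library (Spearman rho) in the bottom row; points are libraries of SF_HPD (green), SF_ConD (orange) and SC_ConD (blue). SC_ConD 2 and 3 stand alone at the right of the top row, and the 4 libraries at the right of the bottom row hold the lowest Timp1 values but for SF_HPD 5.

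Since Sparc and Postn went together, promoters of both are shown, from 250 bases before to 50 bases after the RefSeq start site (GRCm38.p6), 5′ to 3′ on the gene's strand. RefSeq gives 2 start sites for Postn, and the one shown is the one beside the gene start in the expression table. The Sparc window instead lies inside the gene as the expression table gives it, with its 5′ end at base 55423183. Capitals mark matches on either strand to the core letters of the SMAD box (CAGAC), the element of the factors downstream of Tgfb1, or to the TATA box (TATAAA).
Sparc, chr11:55420031-55420330, minus strand: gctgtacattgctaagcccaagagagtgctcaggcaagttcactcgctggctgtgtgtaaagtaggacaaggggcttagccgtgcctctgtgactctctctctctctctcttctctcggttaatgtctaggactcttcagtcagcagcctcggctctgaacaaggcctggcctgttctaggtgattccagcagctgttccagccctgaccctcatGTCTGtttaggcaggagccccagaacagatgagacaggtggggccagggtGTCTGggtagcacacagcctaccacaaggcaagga
Postn, chr3:54360857-54361156, plus strand: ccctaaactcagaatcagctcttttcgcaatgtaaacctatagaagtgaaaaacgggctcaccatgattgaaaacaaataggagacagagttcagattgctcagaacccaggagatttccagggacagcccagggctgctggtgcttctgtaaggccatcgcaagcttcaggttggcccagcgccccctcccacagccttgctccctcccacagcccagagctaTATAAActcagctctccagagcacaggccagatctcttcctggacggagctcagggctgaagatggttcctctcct
The Sparc window held 2 SMAD box matches and the Postn window shown 0, while the other Postn window (chromosome 3, 54359017 to 54359316) held 1, beside 49.6% of the 32851 mouse promoters of this length with at least 1. The Postn window shown held 1 TATA match, 26 bases before the start site, and the Sparc window and the other Postn window 0, beside 13.6% of all promoters. Of the other letters searched on both strands, AP-1 (TGANTCA, in 7.81% of promoters), TEAD (GGAATG, in 14.7%), CRE (TGACGTCA, in 1.79%), the SMAD GC element (GGCGCC, in 11.9%), SP1 (GGGCGG, in 35.7%) and the hypoxia element (ACGTG, in 19.6%), none of the 3 windows held any.

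Relatives and partners of the members were counted from 7 lists of pathway genes. None of their tested genes passed an adjusted p of 0.05 in limma in any comparison. For SF_ConD against SC_ConD, all 11 tested matricellular relatives had a negative log2 fold change (median −0.73), as did all 16 elastic fibre and other glycoprotein genes (median −0.72), 16 of 20 genes of cross-linking and collagen assembly (median −0.57), 11 of 12 basement membrane genes (median −0.56) and 17 of 24 proteases and inhibitors (median −0.45), beside a median of −0.03 over all genes, of which 52.6% were negative. The integrins and other receptors had 15 of 22 negative (median −0.26) and the genes of Tgfb1 handling, its receptors and targets 12 of 22 (median −0.03). The genes of a list are not independent of each other. The stromal progenitor markers averaged 4.41 in SF_HPD (3.70 to 5.06), 3.998 in SF_ConD (3.27 to 4.33) and 4.46 in SC_ConD (4.09 to 4.72; mean log2(FPKM + 1) of 16 genes), so their mean was lowest in SF_ConD. Mfap5 is both in this marker list and in the elastic fibre list. The part of the markers in these shifts was not tested.

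For SF_HPD against SF_ConD the same lists had positive medians, at 0.58 for the matricellular relatives with 11 of 11 positive and 0.73 for the elastic fibre list with 15 of 16 positive, beside 0.01 over all genes, of which 48.1% were negative. The stromal progenitor markers given above were also higher in SF_HPD than in SF_ConD on average, with overlap. Both comparisons hold the SF_ConD libraries. For SF_HPD against SC_ConD the medians were −0.12 for matricellular relatives, −0.11 for the elastic fibre list, −0.27 for cross-linking and collagen assembly, −0.17 for proteases and inhibitors, 0.01 for basement membrane, 0.02 for integrins and other receptors and 0.07 for the Tgfb1 list.

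The single genes named from these lists, here and below, were among those with the smallest p of a list in a comparison. Their separation is therefore no further test. For SF_ConD against SC_ConD, 2 of 16 elastic fibre genes and 2 of 11 matricellular relatives were lower without overlap. So were 3 of 24 proteases and inhibitors, 4 of 20 cross-linking genes and 1 of 22 genes of the Tgfb1 list. No gene of these lists was higher without overlap, beside 1.92% of all genes lower and 1.68% higher. Efemp1 (fibulin 3) was at 6.98 to 30.4 FPKM in SF_HPD, at 3.37 to 10.9 FPKM in SF_ConD and at 17.4 to 29.7 FPKM in SC_ConD. SF_ConD lay below SC_ConD without overlap, with a log2 fold change of −1.61 (SE 0.46), and SC_ConD 1, at 20.6 FPKM, was between the liver-bearing libraries. Efemp1 kept this separation in TPM (5.08 to 20.6 in SF_ConD and 23.3 to 56.8 in SC_ConD). Aebp1, which binds collagen, was also lower without overlap in FPKM, at 3.35 to 6.77 FPKM in SF_ConD and 10.9 to 16.5 FPKM in SC_ConD (log2 fold change −1.36, SE 0.51). So did Adamts5, an aggrecan- and versican-cleaving protease, at 0.686 to 3.23 FPKM in SF_ConD and 3.94 to 6.4 FPKM in SC_ConD (−1.08, SE 0.43), and fibulin 5 (Fbln5), needed for elastic fibre assembly, at 1.75 to 4.87 FPKM and 7.90 to 14.7 FPKM in those groups (−1.24, SE 0.54). In TPM the libraries of these 3 genes overlapped, with a highest SF_ConD value of 18.4 against a lowest SC_ConD value of 14.6 for Aebp1, 8.39 against 3.90 for Adamts5 and 13.5 against 8.51 for Fbln5.

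Transglutaminase 2 (Tgm2), which cross-links fibronectin, was at 8.47 to 39.5 FPKM in SF_HPD, at 18.8 to 57.7 FPKM in SF_ConD and at 64.8 to 137 FPKM in SC_ConD. Both sleep-fragmented groups were below SC_ConD without overlap in FPKM but not in TPM (6.42 to 150 in SF_HPD, 28.2 to 159.98 in SF_ConD and 112 to 178 in SC_ConD), with log2 fold changes of −2.09 (SE 0.51, limma adjusted p = 0.394) for SF_HPD against SC_ConD and −1.35 (SE 0.51, limma adjusted p = 0.813) for SF_ConD against SC_ConD. Loxl1, a lysyl oxidase relative that acts on elastin, was at 3.12 to 20.4 FPKM in SF_HPD and 1.10 to 7.88 FPKM in SF_ConD (log2 fold change 1.14, SE 0.48), and Ecm1 at 4.80 to 33.9 FPKM and 3.90 to 8.80 FPKM in those groups (1.04, SE 0.44). Smoc2, a Sparc relative, was at 1.40 to 12.4 FPKM in SF_HPD and 0.158 to 1.88 FPKM in SF_ConD (1.26, SE 0.45). The highest value of Smoc2 was in SF_HPD 4 and the next in that group was 2.78 FPKM. That of Ecm1 was in SF_HPD 1 (next 16.85 FPKM) and that of Loxl1 in SF_HPD 3 (next 10.9 FPKM). SF_HPD 1 and 4 were libraries of high length trend. On the lower side, Timp4, an inhibitor of metalloproteinases, was at 0.470 to 19.1 FPKM in SF_HPD and 10.01 to 26.4 FPKM in SF_ConD (−0.95, SE 0.60), and Mmp11 at 1.33 to 7.55 FPKM and 5.02 to 15.8 FPKM in those groups (−0.71, SE 0.48). The lowest value of both was in SF_HPD 2, the library with few adipocyte transcripts. The next lowest SF_HPD values were 6.88 FPKM for Timp4 and 4.10 FPKM for Mmp11.

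The named genes whose order over the 13 libraries was most like that of each member were found by Spearman's rho among 9542 genes with a mean FPKM of at least 2. For Thbs1 they were the actin-binding caldesmon gene Cald1 (0.940), Adamts5 (0.923) and Adam9 (0.918), and for Fn1 they were Gpc3 (0.940), Lpgat1 (0.907) and Col18a1 (0.885). For Sparc they were Palm (0.984), Adamts2 (0.956) and Adam15 (0.934), and for Postn Ext1 (0.940), Tinagl1 (0.918) and Anxa6 (0.912). Spp1 was closest to C1ra (0.890), Igf1 (0.890) and Slc6a13 (0.863), and Lox to Ddx24 (0.940), Gzf1 (0.929) and Ppp2r1b (0.907). Timp1 was closest to Mblac1 (0.934), Cby1 (0.929) and Nubpl (0.929), Tnc to Mgat4a (0.967) and Pigo (0.962), and Tgfb1 to Pip4k2b (0.962), Gtpbp1 (0.956) and Vps33b (0.956). These are the extremes of a search over many genes in libraries that share depth, tissue content and length trend, and they carry no p.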

How the data were processed

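The authors deposited 1 table of FPKM values for 13 libraries of mouse inguinal white adipose tissue, with gene length and coordinates. The tools named, per the submitters' processing notes, are featureCounts 1.5.0-p3, HISAT2 2.0.5 and CASAVA; those notes give mm8 as the build, whereas the table's coordinates are those of GRCm38. FPKM times gene length gave whole multiples of 1 read within 0.05 for 100% of values above 0 in every library; the totals recovered were 14815592 to 18303302 reads. The total that the FPKM were divided by was 0.479 to 1.23 times a library's own recovered total, and the sum of FPKM differed 5.03-fold between libraries.

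limma 3.58.1 (R 4.3.3, trend and robust options) was fitted to log2(FPKM + 1) of 14421 genes (3 or more libraries had to reach 1 FPKM), over all 13 libraries, and p-values were adjusted over all of these genes by Benjamini-Hochberg. Fold changes on this scale understate the change of low genes. limma-voom on the recovered reads was an alternative, beside other pseudocounts, filters, scalings, a length covariate, a replicate block and libraries left out. Both tools were tested on simulated reads drawn around a common profile with a fixed dispersion. That simulation held no foreign tissue, length trend or unequal FPKM divisor, so it does not cover these features of the libraries. Permutation tests used Python 3.11.15 and numpy 2.4.6. Each mouse was 1 library and no 2 libraries agreed within counting noise (lowest chi-square per degree of freedom 71.0).

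Replicate numbers come from the titles and no label says what they share. Deviations from the group means of same-numbered SF_HPD and SC_ConD libraries had correlations of 0.711, 0.333 and 0.191. The 0.711 was between SF_HPD 1 and SC_ConD 1, both of high length trend. SC_ConD 2 went most with SF_HPD 5 and SC_ConD 3 with SF_HPD 2, so the numbers do not establish a pairing. Each of the other 2 comparisons held negative correlations. Beside the 9 genes, the genes named are up to 3 of each pathway list with the smallest p in each comparison, up to 3 genes most like each member, and the 2 highest markers of lists that bear on a result. Some genes that these rules name are not reported here. The members, lists and motifs were chosen with earlier results of these data known. Promoters (9 sequences for 6 of the 9 members) are from RefSeq, and coding sequences from GENCODE M21, from the longest reading frame that matches an annotated coding length.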

Additional observations from a re-analysis of the deposited data

Results flagged for a closer look

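Of 18 sets of 5 libraries checked (each member in SF_HPD and in SF_ConD), 1 held a library far from the other 4, which is about as many as chance gives at 1 in 20 sets. Thbs1 was at 9.66 FPKM in SF_ConD 3 and at most 3.34 FPKM in the other SF_ConD libraries. SF_ConD 3 was also a library in which long genes read high, and the part of that trend in its Thbs1 value was not tested. Without SF_ConD 3 the log2 fold change of Thbs1 for SF_ConD against SC_ConD was −2.59, and for SF_HPD against SF_ConD it was 1.63.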

How the results depend on the processing

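With all 13 libraries 0 genes passed in limma in each comparison, and 0 passed under every alternative pseudocount, filter and scaling, under limma-voom, and without the liver-bearing, lymphoid-rich, muscle-bearing or adipocyte-poor libraries. Leaving out each library in turn gave 0 to 194 genes for SF_ConD against SC_ConD, 0 to 1 for SF_HPD against SF_ConD and 0 to 195 for SF_HPD against SC_ConD; the high counts came without SC_ConD 1, and the single genes without SF_HPD 5. Within the 9 libraries of low length trend, an alternative added after the data were seen, 154 genes passed for SF_ConD against SC_ConD and 158 for SF_HPD against SC_ConD, with Fn1, Thbs1 and Spp1 among the first and Fn1 among the second. In both settings SC_ConD is only the liver-bearing libraries 2 and 3, and the cause of the counts was not tested. The replicate block alone called 0 genes in each comparison and changed no call. The block fits held only libraries whose number occurs in both groups, for SF_ConD against SC_ConD libraries 1 to 3 of each. With the length trend added to the block, 17 genes passed for SF_ConD against SC_ConD, among them Fn1 (log2 fold change −3.39, limma adjusted p = 0.0253). Few libraries were left over after the group, block and trend terms, so the spread of a gene is poorly estimated in that fit. The numbers also do not pair the samples there (correlations of −0.558, 0.19 and −0.316).

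The median of the members that could be fitted kept its sign under all alternatives, at −1.26 to −0.39 for SF_ConD against SC_ConD, 0.06 to 0.81 for SF_HPD against SF_ConD and −0.73 to −0.0018 for SF_HPD against SC_ConD. Fn1, Thbs1, Sparc, Spp1 and Lox kept a negative value for SF_ConD against SC_ConD in every alternative run, whereas the sign of Timp1, Postn, Tnc and Tgfb1 turned in at least 1. Rescaling to TPM moved the median of all genes to 0.16 for SF_ConD against SC_ConD and 0.25 for SF_HPD against SC_ConD. With that rescaling the log2 fold change of Fn1 for SF_ConD against SC_ConD was −2.86. Timp1, Spp1 and Tnc rest on few reads, and 3 SC_ConD libraries, 2 of them with liver transcripts, limit every comparison with normal sleep.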
